A study of Rattus norvegicus with 38 samples.

Results

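The 10 genes described here encode the liver's pathway for making fatty acids from carbohydrate carbon, called de novo lipogenesis. They were chosen by symbol: Acly, Acaca, Acacb, Fasn, Elovl6, Scd, Me1, Thrsp, Srebf1 and Mlxipl. All 10 were found among the 31038 genes of the deposited count table, and all 10 were among the 14786 genes that passed the filter on low counts. The study sequenced liver RNA of Sprague-Dawley rats, an outbred laboratory strain, taken on day 28. There were 38 livers in 8 groups, which crossed an injection of lipopolysaccharide (LPS) with 4 arms, of which 1 had no extract. LPS is the bacterial outer membrane component that sets off inflammation. Rats of the control group (n = 5) had neither LPS nor an extract. The labels name a gavage for the rats with an extract and none for the rats without. EF rats (n = 5) had the extract EF at 2.5 g/kg by the intragastric route, EF_PF rats (n = 5) had EF with 2.5 g/kg of PF, and EF_RD rats (n = 4) had EF with 200 mg/kg of RD. The same arms with LPS injected into the peritoneal cavity are LPS alone (n = 5), the EF arm LPS_EF (n = 5), the PF arm LPS_EF_PF (n = 4) and the RD arm LPS_EF_RD (n = 5). PF and RD were given together with EF in every group that had them, so what either does alone was not tested. The sources used here give neither the dose and timing of LPS nor what the extract names stand for. The labels name the cell type hepatocyte and the tissue liver, describe no step that separates hepatocytes, and give all samples 1 batch label. The samples are biological replicates per the design text.

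In de novo lipogenesis, citrate exported from mitochondria is split into acetyl-CoA, acetyl-CoA is carboxylated to malonyl-CoA, and fatty acid synthase joins these units into palmitate with reducing power from NADPH. An elongase and a desaturase then turn palmitate into the oleate that liver stores and exports as triglyceride. The transcription factor SREBP1c, encoded by Srebf1, raises these genes in response to insulin, and ChREBP, encoded by Mlxipl, raises them in response to glucose metabolites.

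Some livers held RNA of other tissues or stood apart from their group. The 38 libraries held 19716622 to 35835012 counted read pairs, and 12969 to 14658 genes had at least 10 counts in a library. All 8 hepatocyte markers were detected in every group, with summed levels of 95798 to 163525 CPM (counts as a share of the library on a fixed scale, with libraries scaled by TMM, the trimmed mean of M values). Markers of Kupffer cells and macrophages, at 113 to 861 CPM, and of neutrophils, at 3.78 to 2385 CPM, were present too, so the RNA is not of hepatocytes alone. The library EF_RD 1 (group and replicate number) held the fat cell genes Adipoq at 62.5 CPM and Plin1 at 19.3 CPM, against at most 4.46 and 1.05 CPM in the other 37 libraries. Its 9 skeletal muscle markers summed to 3882 CPM, against at most 376 CPM elsewhere, in LPS 3. Control 5 and LPS 3 held exocrine pancreas markers at 2981 and 1724 CPM, against at most 108 CPM in the others. Fat cells also make fatty acids. Some values that rest on EF_RD 1, for Acly, Acaca, Fasn, Scd and Thrsp, are given again without it further on. EF 1, EF_RD 1, LPS_EF 7 and LPS_EF_RD 6 had stood apart from their groups in acute-phase level when these data were first examined, and an alternative leaves them out. By the acute-phase gene A2m, EF 1 and EF_RD 1 were high, at 17.2 and 19.0 CPM. Other livers of their groups reached at most 3.51 and 1.515 CPM. LPS_EF 7 and LPS_EF_RD 6 were low, at 5.84 and 6.90 CPM, where others of their groups held at least 84.2 and 87.5 CPM. By the sum of 8 acute-phase markers, EF 5 was the highest EF liver, at 67026 CPM. The main tests keep all of these livers. In whole-liver RNA, fewer cells of a type and less RNA per cell cannot be told apart.

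Compared per transcript length, the 10 genes differed widely in TPM, the share of transcripts scaled to a fixed total. Thrsp, which encodes the small spot 14 protein that promotes lipogenesis, was the most abundant with a median of 502.6 TPM over 38 livers and a range of 72.5 to 2097 TPM. Scd followed at a median of 245.8 TPM, with a range from 12.7 to 1383 TPM. Acly had a median of 74.5 TPM, ahead of Srebf1 at 41.1, Fasn at 40.0 and Mlxipl at 35.8 TPM. The medians of Me1, Acaca and Acacb were 19.0, 12.4 and 8.35 TPM. Elovl6 was listed at a median of 0.239 TPM, which rested on 1 to 32 read pairs per library with a median of 8, so differences of Elovl6 were not detectable at this depth unless large. Whether the annotation counted here covers the Elovl6 transcripts of rat liver was not tested. For each of the 10 genes, all 7 pairs of groups next to each other in the order of mean CPM overlapped in their libraries. Neighbours in such an order have close means by construction, so this does not describe groups further apart.

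**Figure D1:**
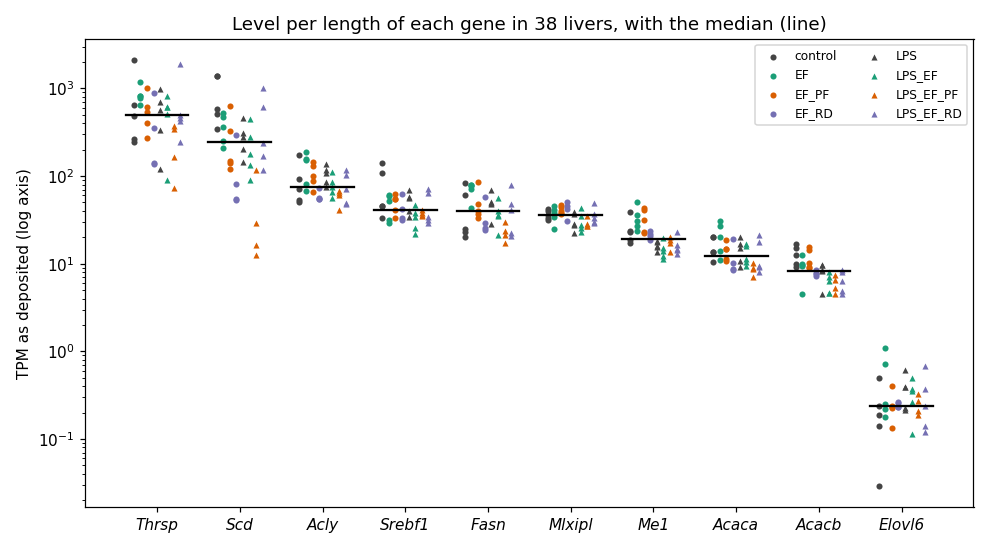
TPM as deposited (log axis) for each of the 10 genes, ordered by the median over 38 livers (black line), with 1 point per liver coloured by arm and triangles for LPS. Thrsp and Scd sit highest with the widest spread, and Elovl6 sits below 1 TPM in nearly all livers.

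The genes of the early steps moved together from liver to liver. As a description over the 38 livers, which share groups and scaling, the log2 CPM of Acly and Fasn had a Pearson r of 0.883, and 0.833 after group means were removed. Acaca and Acly had r = 0.844, and 0.803 within groups, and Acaca and Thrsp had 0.812 and 0.752. Scd was tied less closely to Srebf1, with r = 0.36 over all livers and 0.084 within groups. Mlxipl and Fasn had r = 0.295 and 0.151. The liver with the highest mean z-score over the 10 genes was control 3, at 1.72, followed by EF 2 at 1.25, EF_PF 3 at 1.14 and control 7 at 1.06, and the lowest was LPS_EF_PF 6 at -1.47. Outside the 10 genes, the 5 whose log2 CPM over the 38 livers was most like that mean were Pdk1 (r = 0.875), Pnpla3 (0.851), Otub2 (0.826), Gbe1 (0.82) and Rgn (0.82). Among the genes most like Fasn alone were Pank3 (0.805) and Nsdhl (0.788).

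**Figure D2:**
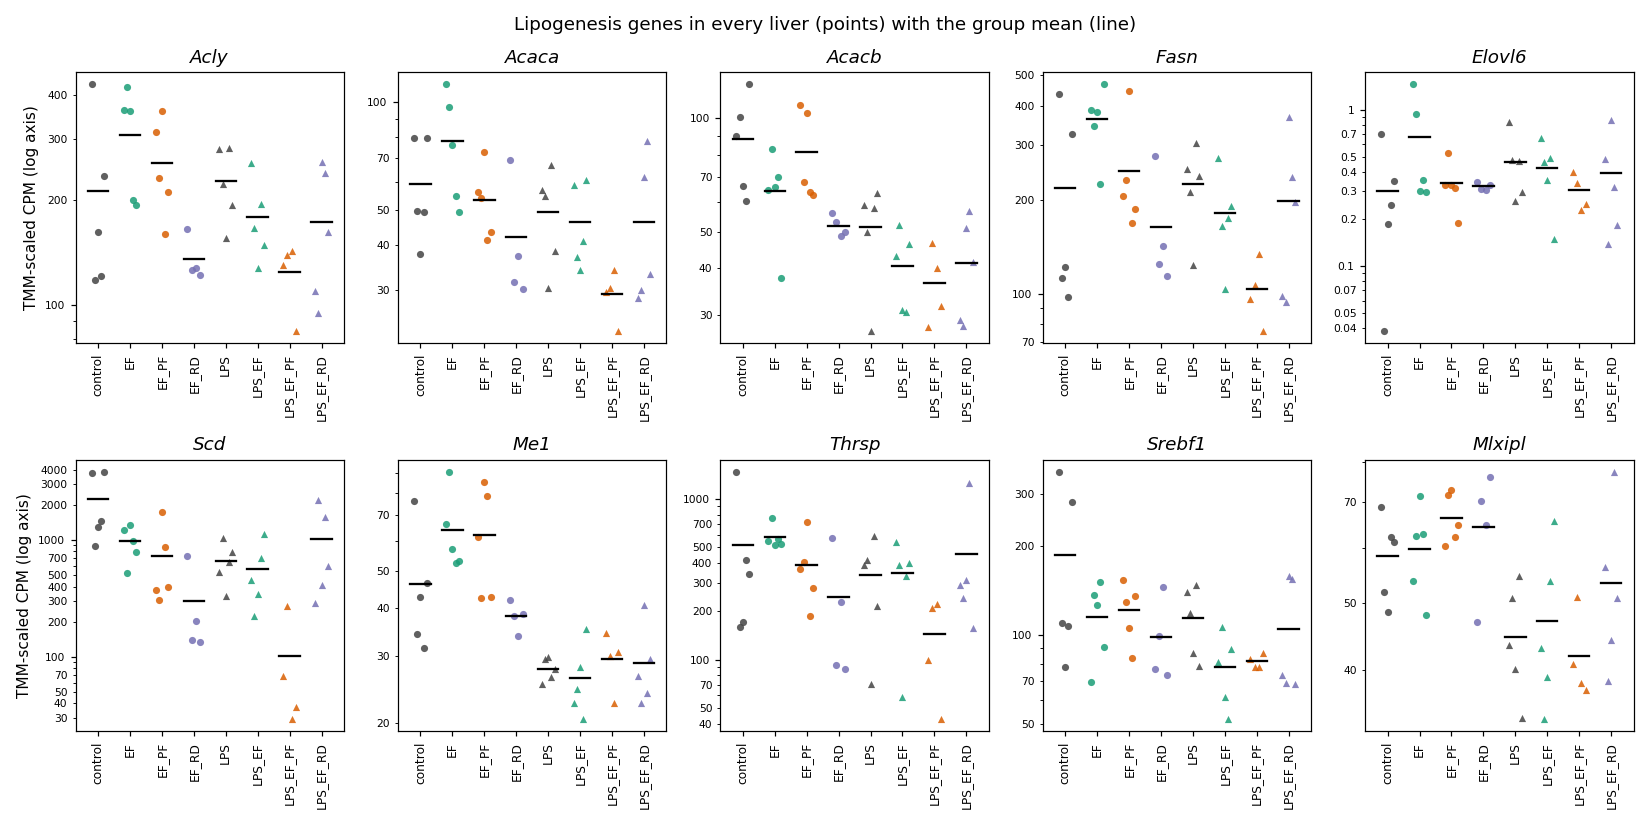
TMM-scaled CPM (log axis) of the 10 genes in each of the 38 livers, with circles for groups without LPS, triangles for groups with LPS and a line at the group mean. The LPS_EF_PF livers are low in most panels, the controls 3 and 7 are high for Scd and Srebf1, and Me1 is low in all LPS groups.

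In 3 of the 4 arms some of the 10 genes were called lower after LPS, and the arm with EF and PF held the most calls. Tests of whether the LPS effect differed between arms are given further on. In the main tests they called 0 of the 10, so the counts do not rank the arms. Calls are at an adjusted p under 0.05 by edgeR's quasi-likelihood test, adjusted over all genes tested by the Benjamini-Hochberg method. Shares of all genes are for such calls, and none was taken at an unadjusted p. LPS against control called 3 genes lower, Acacb, Me1 and Scd, where 18.1% of all genes tested were called lower. Without control 3, Scd and Me1 had adjusted p of 0.0795 and 0.0531 there. LPS_EF against EF called 4 lower, Acaca, Acacb, Fasn and Me1, against 14.5% of all genes. With library totals in place of TMM, Acaca, Acacb and Fasn had adjusted p of 0.0704, 0.0555 and 0.0701 there, and Me1 remained called. LPS_EF_PF against EF_PF called 7 lower, Acly, Acaca, Acacb, Fasn, Scd, Me1 and Mlxipl, against 17.3% of all genes. These 7 were also the genes whose LPS_EF_PF livers all lay below the EF_PF livers, which held for 17.6% of all genes. LPS_EF_RD against EF_RD called 0 of the 10, where 23.5% of all genes were called in either direction. In that comparison 1 gene, Scd, had an unadjusted p under 0.05 in edgeR, and DESeq2 also called 0. Scd was called higher there without EF_RD 1 (log2 fold change 2.67, adjusted p 0.0105) and without LPS_EF_RD 1 (adjusted p 0.0404). In the main tests, none of the 10 was called higher in any of the 4 comparisons, where 18.6%, 14.6%, 19.2% and 12.8% of all genes were. The groups of the 4 comparisons share no library. The median log2 fold change of the 10 genes was -0.504 without extract, -0.754 with EF, -1.06 with EF and PF, and 0.205 with EF and RD, while the median over all genes lay between -0.022 and -0.002. Scaling by library totals raised the share of higher genes among all called from 50.6% to 72.0% without extract, 50.2% to 67.7% with EF, 52.6% to 78.5% with EF and PF, and 54.4% to 64.7% with EF and RD.

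**Figure D3:**
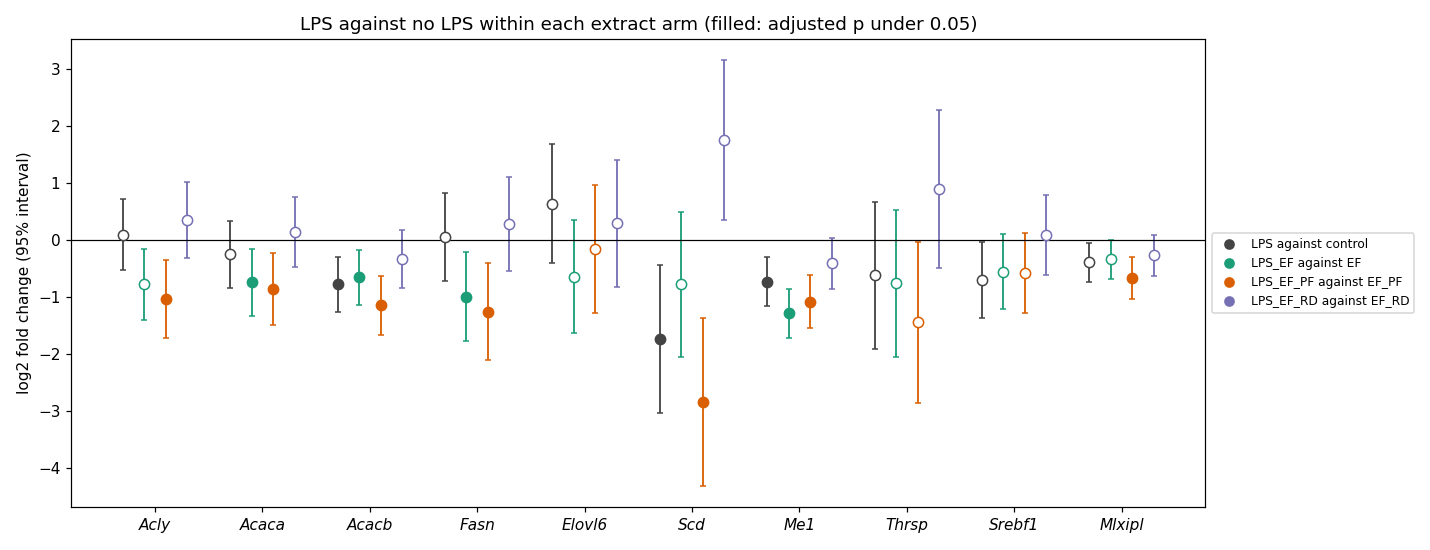
Log2 fold change with its 95% interval for LPS against no LPS within each arm, for the 10 genes (edgeR quasi-likelihood fit over 38 livers). Filled points passed an adjusted p under 0.05. Filled points lie below 0 for 7 genes with EF and PF, and no point is filled with EF and RD, where Scd stands at 1.75.

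Acly and Me1 supply the pathway's substrates, acetyl-CoA from citrate and NADPH from malate. Me1, cytosolic malic enzyme (rn6 chr8:94256830-94368834), was lower after LPS in 3 of the 4 arms. Values are given in CPM in the order of replicate numbers, which are 3 to 7 in control and LPS_EF, 1 to 5 in EF and LPS, 1, 2, 3, 5 and 6 in EF_PF, 1 to 4 in EF_RD, 1, 3, 4 and 6 in LPS_EF_PF, and 1, 2, 4, 6 and 8 in LPS_EF_RD. Me1 stood at 76.0, 34.1, 42.8, 31.4 and 46.5 CPM in control livers and at 25.4, 29.4, 29.8, 26.4 and 27.7 CPM in LPS livers. The 2 groups did not overlap, which held for 12.4% of all genes, and the lowest control, control 6, was close to the highest LPS liver. The log2 fold change was -0.74 ± 0.21 (SE), with an adjusted p of 0.00663. Without control 3, the highest liver, it was -0.49 with an adjusted p of 0.0531. In EF livers Me1 was 66.4, 90.8, 57.1, 52.4 and 53.1 CPM, against 22.6, 24.6, 28.0, 20.5 and 35.3 CPM in LPS_EF livers. Every LPS_EF liver lay below every EF liver, which held for 4.99% of all genes. Me1 was the 1 gene of the 10 to show this. The log2 fold change was -1.29 ± 0.21 (adjusted p 6.15e-05), a level of 0.41 times that of EF livers. EF_PF livers held 61.3, 42.4, 85.6, 78.7 and 42.8 CPM and LPS_EF_PF livers 34.3, 29.9, 22.6 and 30.7 CPM, a log2 fold change of -1.08 ± 0.23 with an adjusted p of 0.000386. Both calls, with EF and with EF and PF, held in every alternative run. EF_RD livers were at 42.1, 38.2, 33.7 and 38.5 CPM, lower than every EF liver, and LPS_EF_RD livers were at 26.5, 22.6, 40.7, 24.0 and 29.4 CPM. The ranges overlapped through LPS_EF_RD 4, and the log2 fold change of -0.41 (95% interval -0.86 to 0.04) did not pass, with an adjusted p of 0.176.

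Acly, ATP citrate lyase (rn6 chr10:88392248-88442845), passed the test in 1 arm. EF_PF livers held 313, 231, 359, 159.7 and 211 CPM and LPS_EF_PF livers 130.2, 139, 143 and 84.5 CPM, with no overlap and a log2 fold change of -1.04 ± 0.33 (adjusted p 0.0146). Without LPS_EF_PF 6, its lowest liver, the adjusted p was 0.0565. EF livers held 361, 421, 360.1, 201 and 193 CPM and LPS_EF livers 255, 167, 128, 194 and 149 CPM. These groups overlapped, because EF 4 and EF 5 lay among the LPS_EF values, and the log2 fold change of -0.78 ± 0.31 had an adjusted p of 0.0536 in edgeR and 0.037 in DESeq2. Without EF 4, EF 5 or LPS_EF 3 it was 0.0374, 0.0358 and 0.0343 in edgeR. Control livers held 429, 118, 162, 121 and 235 CPM and LPS livers 279.7, 222, 155, 282 and 194 CPM, with a difference of 0.09 on the log2 scale (95% interval -0.53 to 0.71). Control 3 was the highest of the 38 livers for Acly, and all LPS livers lay inside the control range. EF_RD livers held 165, 126, 128 and 122 CPM, narrow apart from EF_RD 1, and LPS_EF_RD livers 110.2, 95.3, 257, 239 and 162 CPM, a log2 fold change of 0.35 (95% interval -0.31 to 1.02).

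Acaca and Acacb encode the acetyl-CoA carboxylases that make malonyl-CoA, Acaca for synthesis in the cytosol and Acacb at the mitochondrial surface, where malonyl-CoA restrains fatty acid oxidation. Acacb (rn6 chr12:48127149-48238969) was lower in the same 3 arms as Me1. It stood at 90.1, 101, 66.2, 60.3 and 123 CPM in control livers and 58.9, 49.9, 27.2, 57.8 and 63.2 CPM in LPS livers, a log2 fold change of -0.78 ± 0.24 (adjusted p 0.00999). The groups overlapped only where LPS 5 passed control 6. EF livers held 64.4, 82.9, 65.9, 69.7 and 37.6 CPM and LPS_EF livers 43.0, 52.0, 31.0, 30.6 and 46.5 CPM, a log2 fold change of -0.66 ± 0.24 (adjusted p 0.0345). EF 5 fell among the LPS_EF values, and the other 4 EF livers lay above them. That call was lost when EF 2, EF 3, EF 4, LPS_EF 3, LPS_EF 5 or LPS_EF 6 was left out, with adjusted p of 0.103, 0.0587, 0.0694, 0.0532, 0.0963 and 0.0928. With EF and PF, Acacb stood at 109, 67.8, 103, 63.8 and 62.6 CPM without LPS and 27.9, 46.8, 39.9 and 31.7 CPM with it, with no overlap, a log2 fold change of -1.15 ± 0.26 and an adjusted p of 0.000737. This call held in every alternative run. With EF and RD, values were 56.0, 53.1, 48.6 and 49.9 CPM and, after LPS, 29.2, 28.1, 51.1, 56.9 and 41.5 CPM, a log2 fold change of -0.33 (95% interval -0.84 to 0.18).

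Acaca (rn6 chr10:71519392-71719910) followed Acly closely in level from liver to liver. EF_PF livers held 56.3, 54.0, 72.5, 41.3 and 43.5 CPM and LPS_EF_PF livers 29.6, 30.4, 34.2 and 23.1 CPM, a log2 fold change of -0.87 ± 0.31 (adjusted p 0.0275) between groups that did not overlap. The adjusted p was 0.0726 without EF_PF 3, 0.0519 without LPS_EF_PF 1, 0.0792 without LPS_EF_PF 6, and 0.0712 when libraries were scaled by their totals. EF livers held 112, 97.1, 75.9, 54.8 and 49.6 CPM and LPS_EF livers 58.9, 37.2, 34.2, 41.0 and 60.8 CPM, a log2 fold change of -0.75 ± 0.29 (adjusted p 0.0478). EF 1, 2 and 3 lay above all LPS_EF livers, and EF 4 and EF 5 lay among them. This call was at the threshold and was lost without EF 1, EF 2, EF 3, LPS_EF 4, LPS_EF 5 or LPS_EF 6, with adjusted p of 0.136, 0.112, 0.0672, 0.114, 0.12 and 0.0916. Control livers held 79.5, 49.7, 37.9, 49.5 and 79.3 CPM and LPS livers 57.0, 54.8, 30.3, 66.8 and 38.5 CPM, and their log2 fold change of -0.26 had a 95% interval of -0.84 to 0.32. With EF and RD the values were 69.0, 31.5, 37.4 and 30.2 CPM and, after LPS, 28.4, 30.0, 61.8, 78.0 and 33.2 CPM, where EF_RD 1, LPS_EF_RD 4 and LPS_EF_RD 6 were high, and the log2 fold change was 0.14 (95% interval -0.48 to 0.76).

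Fasn, fatty acid synthase (rn6 chr10:109987735-110005901), carries out the chain-building step. EF_PF livers held 205, 232, 446, 169 and 187 CPM and LPS_EF_PF livers 96.3, 107, 134 and 76.1 CPM. The groups did not overlap, EF_PF 3 was far above the other EF_PF livers, and the log2 fold change was -1.26 ± 0.42 (adjusted p 0.0176). The adjusted p was 0.0761 without EF_PF 3 and 0.0567 without LPS_EF_PF 6. EF livers held 389, 344, 381, 225 and 469 CPM, the highest group mean, and LPS_EF livers 273, 165, 104, 174 and 192 CPM. The groups overlapped through EF 4 and LPS_EF 3, and the log2 fold change was -0.99 ± 0.38 (adjusted p 0.0495). That call was lost without EF 1, EF 2, EF 3 or EF 5 (adjusted p 0.0684, 0.0678, 0.0775 and 0.112) and without LPS_EF 4, LPS_EF 5, LPS_EF 6 or LPS_EF 7 (0.0963, 0.131, 0.0822 and 0.0601). Control livers held 435, 112, 122, 97.6 and 324 CPM, where controls 3 and 7 stood far above the other 3, and LPS livers held 251, 212, 124, 303 and 238 CPM inside that span. Their log2 fold change was 0.05 with a 95% interval of -0.73 to 0.82. EF_RD livers held 276, 125, 142 and 114 CPM and LPS_EF_RD livers 98.2, 94.5, 367, 236 and 197 CPM, a log2 fold change of 0.27 (95% interval -0.55 to 1.10).

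Scd, the desaturase that puts the first double bond into newly made saturated fatty acids (rn6 chr1:264159966-264173061), differed most between groups of the 10 genes. Its highest group mean was 21.8 times its lowest, that of LPS_EF_PF, and 49.7 times without LPS_EF_PF 3. The count table also holds the related genes Scd2 and Scd4, and reads shared between near-identical copies could be missing from any of them. Control livers held 3719, 882, 1282, 1466 and 3831 CPM and LPS livers 530.0, 1044, 333, 648 and 783 CPM. Controls 3 and 7 were far above all LPS livers, control 4 lay among them, and the log2 fold change was -1.74 ± 0.64 (adjusted p 0.0307). The call was lost without control 3, control 7, LPS 1, LPS 3 or LPS 4, with adjusted p of 0.0795, 0.0866, 0.0616, 0.0752 and 0.0519. EF livers held 1222, 526, 1352, 990.2 and 798 CPM and LPS_EF livers 455, 222, 343, 705 and 1120.3 CPM, with wide overlap and a log2 fold change of -0.78 (95% interval -2.05 to 0.49). EF_PF livers held 373, 308, 1737, 869 and 393 CPM and LPS_EF_PF livers 68.0, 275, 29.5 and 37.5 CPM. All LPS_EF_PF livers lay below all EF_PF livers, LPS_EF_PF 3 was far above its group, and the log2 fold change was -2.84 ± 0.72 (adjusted p 0.00259). It was -4.04 without LPS_EF_PF 3 (adjusted p 0.000326) and -2.25 without EF_PF 3 (adjusted p 0.0133), and the call held in every alternative run. EF_RD livers held 733, 139, 205 and 133 CPM and LPS_EF_RD livers 291, 2201, 416, 1572 and 597 CPM, so here the livers with LPS had the higher mean. EF_RD 1 overlapped the LPS_EF_RD livers, and the other 3 EF_RD livers lay below all of them. The log2 fold change was 1.75 ± 0.69 (95% interval 0.34 to 3.15) and did not pass, with an adjusted p of 0.0628. Without EF_RD 1, the library with fat cell and muscle genes, Scd was higher after LPS by 2.67 on the log2 scale with an adjusted p of 0.0105, and without LPS_EF_RD 1 the adjusted p was 0.0404.

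**Figure D4:**
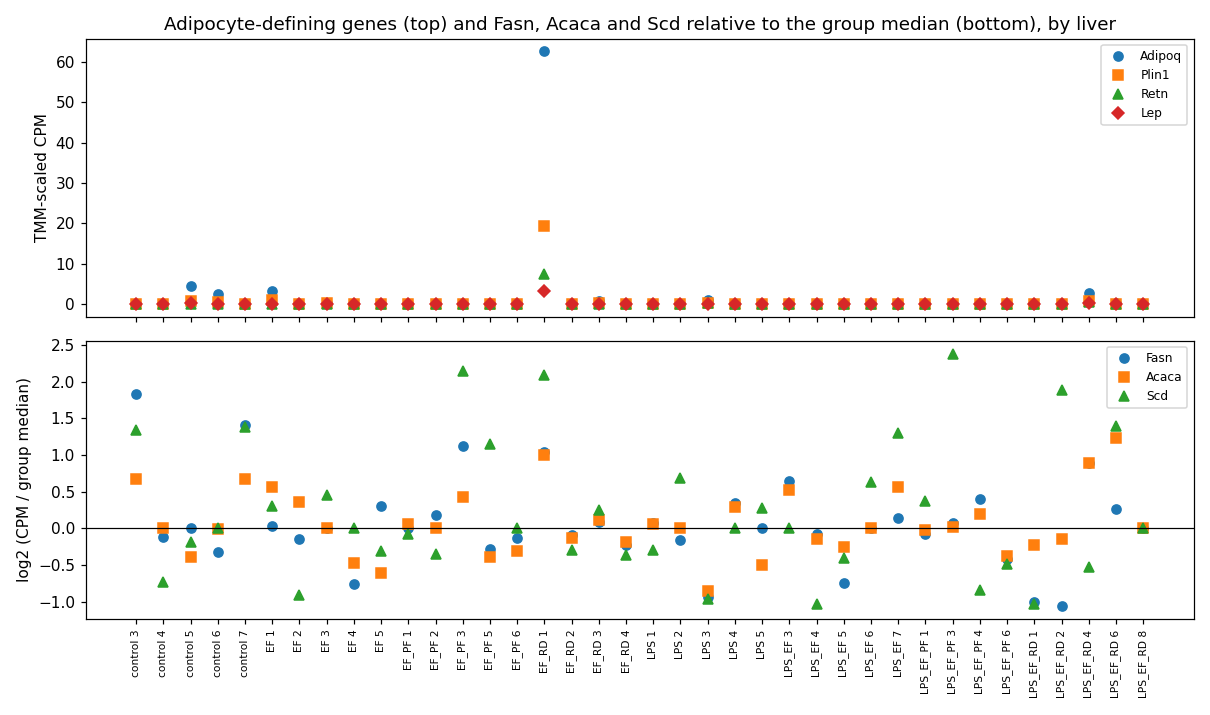
Top, TMM-scaled CPM of 4 genes that define fat cells in each of the 38 livers. Bottom, the CPM of Fasn, Acaca and Scd in each liver relative to its group median on a log2 scale. EF_RD 1 stands alone in the top panel, with Adipoq at 62.5 CPM, and lies above its group median for all 3 genes in the bottom panel. Control 3 and EF_PF 3 also lie above their group medians there. Whether fat cell RNA raised the levels of EF_RD 1 was not tested.

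EF_RD 1 was the highest of its 4 livers for 8 of the 10 genes. Its Fasn level was 276 CPM, against 114 to 142 CPM in the other EF_RD livers, and its Thrsp level was 572 CPM against 87.4 to 229.6 CPM. Its 8 fat cell markers summed to 427 CPM. Adipoq was at 0 in 20 of the 38 livers, and Plin1 in 28. Whether fat cell RNA carried part of the lipogenesis signal of EF_RD 1 was not tested. Without EF_RD 1, Scd was the gene called in LPS_EF_RD against EF_RD. The log2 fold changes there became 0.46 for Acly (from 0.35), 0.48 for Acaca (from 0.14), 0.64 for Fasn (from 0.27) and 1.73 for Thrsp (from 0.88), with adjusted p of 0.367, 0.274, 0.29 and 0.0875. This fit kept LPS_EF_RD 6, whose Thrsp level of 1258 CPM was far above the next LPS_EF_RD liver, at 314 CPM. Against EF livers, EF_RD livers without EF_RD 1 differed by -1.29 for Acly, -1.24 for Acaca, -1.51 for Fasn and -2.10 for Thrsp, with adjusted p of 0.154, 0.124, 0.167 and 0.236. Against control livers the same genes differed by -0.77, -0.84, -0.78 and -1.92, with adjusted p of 0.396, 0.261, 0.487 and 0.281.

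The remaining members were Thrsp, Elovl6 and the transcription factors Srebf1 and Mlxipl. Mlxipl, whose product ChREBP senses glucose metabolites (rn6 chr12:24590645-24619639), stood at 60.4, 71.7, 72.8, 62.3 and 64.8 CPM in EF_PF livers and 40.8, 51.0, 38.3 and 37.5 CPM in LPS_EF_PF livers. The groups did not overlap, and the log2 fold change was -0.66 ± 0.18 (adjusted p 0.0044), a call that held in every alternative run. In the other arms its log2 fold change was -0.39 ± 0.17 without extract (adjusted p 0.0667), -0.34 ± 0.17 with EF (0.124) and -0.27 ± 0.18 with EF and RD (0.279). Mlxipl was called with EF without LPS_EF 7 (-0.49, adjusted p 0.0232), and without extract when control 5 (0.0443) or LPS 4 (0.0354) was left out. Srebf1 (rn6 chr10:46570996-46593021) was not called in any of the 4 arms. Its control livers held 356, 109, 78.1, 107 and 282 CPM, with controls 3 and 7 again high, and its LPS livers 139, 119, 86.5, 148 and 78.6 CPM, a log2 fold change of -0.71 ± 0.33 (adjusted p 0.0865). Srebf1 was called without control 5 (-0.90, adjusted p 0.026) and without control 6 (-0.86, adjusted p 0.0449). The counts do not separate the SREBP1a and SREBP1c transcripts of Srebf1. Thrsp spanned 161 to 1476 CPM in control livers and 42.9 to 222 CPM in LPS_EF_PF livers, and its largest difference in these 4 comparisons, -1.45 ± 0.69 with EF and PF, had an adjusted p of 0.102, and of 0.036 when only these groups were fitted. Elovl6, the elongase from palmitate to stearate, ranged from 0.0383 to 1.46 CPM, and its 4 intervals all spanned 0.

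Markers of hepatocytes and of immune cells differed with LPS beside these genes. In LPS against control 4 of the 8 hepatocyte markers were called lower (Alb, Ttr, Hnf4a and Cps1), where 18.1% of all genes were, and 3 of the 8 had a log2 fold change above 0. Their summed level was 126775 to 163525 CPM in control and 95798 to 121923 CPM in LPS livers. In LPS_EF_PF against EF_PF 5 of 8 were called lower, against 17.3% of all genes, with sums of 131277 to 160160 CPM and 108876 to 116938 CPM. The sums overlapped in LPS_EF against EF, where 2 of 8 were called lower, and in LPS_EF_RD against EF_RD, where 1 of 8 was. None of the 8 was at 0 in any group. Of 7 neutrophil markers tested, 7 were higher in LPS against control (median log2 fold change 4.22), 6 with EF, 7 with EF and PF, and 7 with EF and RD. Of 8 markers of Kupffer cells and macrophages, 5, 4, 7 and 5 were higher in the same order. The shares of all genes called higher were 18.6%, 14.6%, 19.2% and 12.8%. Among livers with LPS, the summed neutrophil markers ran from 29.0 CPM in LPS_EF_RD 6 to 2385 CPM in LPS 3. The part of these cells in the lipogenesis values was not tested.

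Promoter sequences are shown for the genes that were lower together in LPS_EF_PF against EF_PF, as far as the table of promoters used here holds them. In RefSeq annotation of the rat assembly GRCr8, entries were matched for 7 of the 10 genes, with more than 1 for Srebf1 and Mlxipl, and none for Acaca, Fasn and Elovl6. The windows hold the 250 bases before the transcription start, 5′ to 3′ on the gene's own strand, which is the minus strand in all 5 cases. They lie at chr10:85963632-85963881 for Acly, chr12:48138215-48138464 for Acacb, chr1:253231732-253231981 for Scd, chr8:96540245-96540494 for Me1 and chr12:27213661-27213910 for the first entry of Mlxipl. Searches were made for 4 motifs on both strands: the E-box CACGTG, the sterol response element TCACNCCAC, the NF-Y box CCAAT and the GC box GGGCGG. Capitals mark the matches, which were all NF-Y or GC boxes.
Acly: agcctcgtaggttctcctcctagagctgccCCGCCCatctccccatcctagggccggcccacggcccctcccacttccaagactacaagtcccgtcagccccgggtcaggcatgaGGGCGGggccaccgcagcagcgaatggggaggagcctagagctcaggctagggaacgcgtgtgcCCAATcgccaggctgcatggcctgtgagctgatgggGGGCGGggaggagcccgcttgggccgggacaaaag
Acacb: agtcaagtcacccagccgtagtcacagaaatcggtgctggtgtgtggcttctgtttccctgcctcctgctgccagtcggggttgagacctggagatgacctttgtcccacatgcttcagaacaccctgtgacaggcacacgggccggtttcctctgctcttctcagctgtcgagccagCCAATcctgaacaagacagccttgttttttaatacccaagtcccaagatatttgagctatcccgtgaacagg
Scd: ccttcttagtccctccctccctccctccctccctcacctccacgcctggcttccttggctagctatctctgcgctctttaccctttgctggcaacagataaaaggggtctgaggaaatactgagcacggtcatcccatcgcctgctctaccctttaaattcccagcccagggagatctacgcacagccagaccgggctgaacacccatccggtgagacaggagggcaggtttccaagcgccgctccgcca
Me1: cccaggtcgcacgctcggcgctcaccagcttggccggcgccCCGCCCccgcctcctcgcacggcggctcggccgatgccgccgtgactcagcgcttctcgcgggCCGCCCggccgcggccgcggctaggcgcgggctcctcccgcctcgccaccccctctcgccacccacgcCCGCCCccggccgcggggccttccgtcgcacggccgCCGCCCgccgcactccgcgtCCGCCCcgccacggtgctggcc
Mlxipl: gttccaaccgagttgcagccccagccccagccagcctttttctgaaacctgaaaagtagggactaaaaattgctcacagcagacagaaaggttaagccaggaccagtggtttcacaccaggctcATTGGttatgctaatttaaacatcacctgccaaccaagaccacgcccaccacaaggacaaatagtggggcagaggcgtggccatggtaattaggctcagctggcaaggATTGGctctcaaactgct
An NF-Y box began at position -71 in Acly and -72 in Acacb, and Mlxipl held 2, at -126 and -18. GC boxes were found 3 times in Acly and 5 times in Me1. The letters of the E-box and of the sterol response element were in none of the 9 member windows, and the Scd window held none of the 4 motifs. Over 33469 promoter windows of the same length, 34.0% held the NF-Y box, 30.5% the GC box, 5.59% the E-box and 0.974% the sterol response element.

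Without LPS, the extracts moved few of these genes past the threshold, and the 3 comparisons share the control livers. EF against control called 0 of the 10, where 0.92% of all genes were called. EF_PF against control called 0, where the share of all genes was 0.622%. In edgeR 3 and 2 of the 10 had an unadjusted p under 0.05, and DESeq2 called 0 in both. EF_RD against control called Scd lower, where 0.663% of all genes were called lower. Library totals raised the share of higher genes among all called there from 56.4% to 83.6%. EF_RD livers lay below all control livers for Acacb and Scd, which held for 3.34% of all genes. The Scd levels given above, 133 to 733 CPM in EF_RD and 882 to 3831 CPM in control livers, gave a log2 fold change of -2.89 ± 0.73 (adjusted p 0.0337). The call was lost without control 3, control 7, EF_RD 2, EF_RD 3 or EF_RD 4, with adjusted p of 0.0931, 0.0776, 0.0858, 0.0761 and 0.0953, and without EF_RD 1 the log2 fold change was -3.81 (adjusted p 0.0233). Acacb in EF_RD livers differed from control by -0.76 on the log2 scale with an adjusted p of 0.114.

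**Figure D5:**
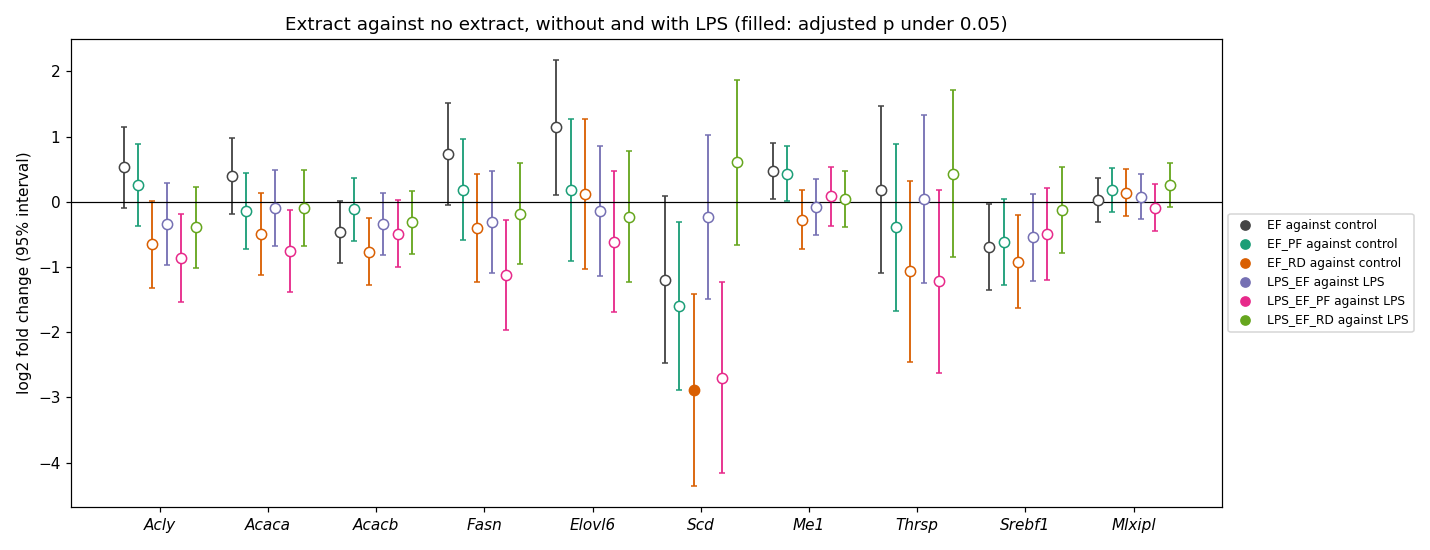
Log2 fold change with its 95% interval for the 10 genes in each extract group against control, and in each extract group with LPS against LPS (edgeR quasi-likelihood fit over 38 livers). Comparisons in each set of 3 share their reference livers. Filled points passed an adjusted p under 0.05. The filled point is Scd in EF_RD livers, at -2.89.

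Set against EF livers, those that also had RD held less Acly and Me1 in every liver, a pattern that 2.64% of all genes showed. The log2 fold change of Acly was -1.18 ± 0.33, with an adjusted p of 0.0828 in edgeR and 0.0299 in DESeq2. In edgeR 0 of the 10 genes were called, where 0.724% of all genes were, and 5 had an unadjusted p under 0.05. DESeq2 called 1, Acly. EF_PF against EF called 0 of the 10, with 0 at an unadjusted p under 0.05 and 0 in DESeq2, where 0.162% of all genes were called.

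Among livers with LPS, the extracts made no difference to the 10 genes that passed the test in edgeR. LPS_EF against LPS called 0, where 0.108% of all genes were called, and LPS_EF_RD against LPS called 0, where 0.0135% were. In both, 0 of the 10 had an unadjusted p under 0.05 and DESeq2 called 0. LPS_EF_PF against LPS called 0, where 0.0406% of all genes were called, with 4 of the 10 at an unadjusted p under 0.05 and 0 called by DESeq2. All LPS_EF_PF livers lay below all LPS livers for Acly and Scd, which held for 2.04% of all genes. The log2 fold change of Scd there was -2.70 ± 0.72 (95% interval -4.17 to -1.24), with an adjusted p of 0.282. LPS_EF_PF against LPS_EF called 0 in edgeR, where 0.00676% of all genes were called, with 2 of the 10 at an unadjusted p under 0.05. DESeq2 called 1 there, Scd, with an adjusted p of 0.038. LPS_EF_RD against LPS_EF called 0 by edgeR and DESeq2, with 0 at an unadjusted p under 0.05, where 0% of all genes were called.

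Whether the LPS effect itself differed between arms was tested in the same fit. The interaction of LPS with EF, with EF_PF and with EF_RD, each against the arm without extract, called 0 of the 10, where 0.108%, 0.0812% and 0.128% of all genes were called. At an unadjusted p under 0.05 there were 0, 2 and 1 of the 10, and DESeq2 called 0 in each. The 3 interactions share the control and LPS livers. The largest interaction was that of Scd with EF_RD, 3.49 ± 0.94 on the log2 scale (adjusted p 0.206), and 4.42 without EF_RD 1 (adjusted p 0.171). Differences between the extract arms were added after their values were seen. The LPS effect with EF_RD minus that with EF_PF was above 0 for 10 of the 10 genes. Of these, 7 had an unadjusted p under 0.05. Shares of all genes for these counts were not taken, and the 10 genes are correlated, so the counts are not of independent genes. At an adjusted p under 0.05 edgeR called 0, where 0.00676% of all genes were called. DESeq2 called 1, Scd, with an adjusted p of 0.00679. The Scd difference was 4.59 ± 0.999 on the log2 scale (95% interval 2.56 to 6.62) with an adjusted p of 0.125 in edgeR, which was 0.0278 (difference 5.78) without LPS_EF_PF 3, 0.186 (3.99) without EF_PF 3 and 0.082 (5.52) without EF_RD 1. The effect with EF_PF minus that with EF, and with EF_RD minus that with EF, called 0 of the 10 by edgeR and DESeq2, where 0% of all genes were called, with 1 and 5 at an unadjusted p under 0.05.

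Lists of other genes of the pathway were counted in the same way, and are read against the share of all genes called. That share was 18.1% lower and 18.6% higher in LPS against control, 14.5% and 14.6% with EF, 17.3% and 19.2% with EF and PF, and 10.7% and 12.8% with EF and RD. Of 14 other targets of SREBP1c, LXR and ChREBP, 7 were lower and 0 higher in LPS_EF_PF against EF_PF, with a median log2 fold change of -0.61. They included Pnpla3, a lipid droplet protein (-3.54 ± 0.82, adjusted p 0.00106), Lpin1, the phosphatidate phosphatase of triglyceride synthesis (-2.31 ± 0.41), and the fatty acid desaturases Fads2 (-1.85 ± 0.31) and Fads1 (-1.22 ± 0.27). In LPS against control 2 of the 14 were higher and 5 lower, in LPS_EF against EF 0 and 5, and in LPS_EF_RD against EF_RD 1 and 2, the last close to the shares of all genes.

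Of the 12 genes of carbon and NADPH supply, 8 were lower and 1 higher in LPS_EF_PF against EF_PF, 5 and 3 in LPS against control, 5 and 1 in LPS_EF against EF, and 1 and 3 in LPS_EF_RD against EF_RD. Tkfc, triokinase, which takes part in fructose breakdown, was lower by -1.64 ± 0.30 with EF and PF, by -1.41 ± 0.27 without extract and by -0.92 ± 0.27 with EF, on the log2 scale. Pklr, liver pyruvate kinase, was higher after LPS with EF and RD (1.13 ± 0.28, adjusted p 0.00414), and was lower in EF_RD than in control livers (-1.08 ± 0.28, adjusted p 0.0392).

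Of 13 regulators, 6 were lower and 1 higher in LPS_EF_PF against EF_PF, 3 and 3 in LPS against control, 2 and 1 in LPS_EF against EF, and 2 and 0 in LPS_EF_RD against EF_RD. Outside the EF and PF arm these counts lie near the shares of all genes. Insig1, which holds SREBP precursors in the endoplasmic reticulum, was lower with EF and PF (-1.65 ± 0.31) and with EF (-0.90 ± 0.29). Mlx, the binding partner of ChREBP, was lower in all 4 arms, from -0.35 ± 0.10 with EF and RD to -0.52 ± 0.10 with EF and PF. Srebf2, which encodes the cholesterol-directed SREBP2, was higher in LPS than in control livers (0.76 ± 0.12), and higher in EF, EF_PF and EF_RD livers than in control (0.74 ± 0.12, 0.80 ± 0.12 and 0.58 ± 0.13). Its interaction of LPS with EF_PF was -0.86 ± 0.18 (adjusted p 0.0379). Of 10 brakes on fatty acid synthesis, 3 were lower and 0 higher in each of the first 3 arms, Trib3, Prkaa2 and Sirt1 among the named ones, and 2 were lower and 0 higher with EF and RD.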

How the data were processed

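Liver RNA of 38 rats was sequenced. The authors deposited read-pair counts per gene, made with featureCounts 2.0.6 on an rn6 RefSeq annotation per the file headers, with no strand or multi-mapping option there. STAR, RSEM and mRatBN7.2 appear too in the submitters' processing notes, so the build of the alignment is uncertain and positions are those of the headers. The deposited TPM values were used for levels between genes. Counts were tested in R 4.3.3 with edgeR 4.0.16: filterByExpr left 14786 genes, TMM scaled the libraries, and 1 quasi-likelihood fit over 38 libraries with a mean per group gave all comparisons, adjusted by Benjamini-Hochberg over the genes tested. The procedure was tested on simulated data that changed a small set of genes in a single group and held no outlying livers. It does not speak to comparisons in which LPS moved many genes. The alternatives were DESeq2 1.42.0, library totals, no filter, a replicate block, fits of only the groups compared and fits without doubted or single libraries. The members and gene lists were chosen with earlier results of these data known. All 10 members are named; from each other list, up to 4 called genes per comparison were taken by largest log2 fold change, if the higher group averaged 2 CPM or more. Each p-value sets a difference against the spread between animals within groups. That spread was estimated for each gene over all groups together, so wide and narrow groups share it. Some genes that this rule names are not reported here.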

Additional observations from a re-analysis of the deposited data

Results flagged for a closer look

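In each group of 4 or 5 livers, the highest and lowest liver was set against the others by Dixon's criterion for each of the 10 genes, which flagged 7 of 80 groups. Chance flags about 1 in 20 where values are independent and normally distributed. CPM were used without a log scale and the 10 genes are correlated, so that rate does not apply directly here. In EF_RD 1, Acly was at 165 CPM, where the next liver was at 128 CPM, and Scd at 733 CPM, where the next was at 205 CPM. Fasn stood at 446 CPM in EF_PF 3, and the next EF_PF liver at 232 CPM. Scd stood at 275 CPM in LPS_EF_PF 3, and the next at 68.0 CPM. Thrsp was far above its group in control 3 at 1476 CPM (next 420.0 CPM), in EF 2 at 759 CPM (next 569 CPM) and in LPS_EF_RD 6 at 1258 CPM (next 314 CPM).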

How the results depend on the processing

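For the members and comparisons with an unadjusted p under 0.05, the alternatives gave 1041 log2 fold changes, of which 967 kept their direction and side of the threshold, 51 lost and 23 gained a call, and 0 reversed. With 1 library left out, the number of the 10 genes called ranged from 1 to 5 in LPS against control, 1 to 4 in LPS_EF against EF, 4 to 7 in LPS_EF_PF against EF_PF, 0 to 1 in LPS_EF_RD against EF_RD, in EF_RD against control and in the difference of the LPS effect with EF_RD minus with EF_PF, and was 0 in the others. DESeq2 called 1 in EF_RD against EF, in LPS_EF_PF against LPS_EF and in that difference. In LPS_EF against EF, library totals gave 1, no filter 2 and only the groups compared 2. EF_RD against control gave 0 with only the groups compared. In LPS_EF_RD against EF_RD, 1 gene was called without LPS 3 and EF_RD 1, 1 without control 5, LPS 3 and EF_RD 1, and 2, Scd and Mlxipl, without EF 1, EF_RD 1, LPS_EF 7 and LPS_EF_RD 6. Leaving out control 5 with LPS 3 and EF_RD 1 was chosen after seeing the data. Replicate numbers did not pair the livers: of 42 same-numbered pairs, 14 had a correlation of deviations over 0.1 (range -0.247 to 0.453). With the replicate block, 1 gene, Me1, was called in LPS against control (Acacb adjusted p 0.0589, Scd 0.211), 1 in LPS_EF_RD against EF_RD and 0 in EF_RD against control. Over all genes, library totals moved the median log2 fold change to 0.128 in LPS against control and 0.144 in LPS_EF_PF against EF_PF. The cause of these changes was not tested. The counts of all genes called moved by over 1.5 times in most comparisons: 5435 in LPS against control had a range of 3565 to 5643, 4310 in LPS_EF against EF 2127 to 5816, 3470 in LPS_EF_RD against EF_RD 1692 to 4720, and 225 in EF_RD against control 16 to 409. Low counts limited Elovl6.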
